A study of Mus musculus with 44 samples.

Results

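The regions described here are stretches of the mouse genome that IRF3 or NF-kB peak lists placed beside the genes of chemosensory receptors. The intervals of all 8 deposited peak lists were joined wherever they overlapped by at least 1 bp. A region counted as near a receptor when it lay within 250 kb of the span of a protein-coding gene whose symbol starts with Olfr, Vmn1r or Vmn2r. There were 283 such regions among 5605 in all, or 5.05% (exact 95% interval 4.49 to 5.66%). The position of the genes chose them, not the height or the condition of a peak.

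The cells were bone marrow-derived macrophages of C57BL/6 mice, grown with M-CSF, the growth factor that turns marrow cells into macrophages, and collected on days 8 to 10. In both genotypes, Dnmt3a KO and WT, cells were given 10 ng/ml LPS for 6 hours or left untreated. Dnmt3a adds methyl groups to unmethylated DNA. LPS, a component of bacterial outer membranes, activates macrophages through TLR4, and IRF3 and NF-kB are transcription factors that act below that receptor. Chromatin bound by either factor was recovered by ChIP-seq in 22 samples of a series of 44, 10 with an IRF3 antibody and 12 with an NF-kB antibody. Each group's replicates were merged into a single list, from 3 samples (KO with LPS), 2 (untreated KO), 2 (WT with LPS) and 3 (untreated WT) for IRF3 and from 3 samples each for NF-kB. The labels give neither the NF-kB subunit nor the way Dnmt3a was deleted, and do not name the animals behind the replicates. Peak positions cannot check the deletion, and they give no expression. Of 8 macrophage marker genes 3 had a region within 10 kb, where the share over all protein-coding genes was 8.10%. These were Adgre1 and Mertk, each with a region in 1 list, and Fcgr1, with one in all 8. Lyz2, Cd68, Csf1r, Itgam and Spi1 had none. Of 6 olfactory neuron markers 2 had one, so such counts do not identify the cells. A merged list has no replicate spread, so no difference between groups was tested, and every interval is an exact binomial one that covers counting error only.

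Olfr genes encode odorant receptors, G protein-coupled receptors of the main olfactory epithelium. Vmn1r and Vmn2r genes encode the pheromone receptors of the vomeronasal organ, with Gnai2 as the G protein partner of most Vmn1r proteins and Gnao1 as that of most Vmn2r proteins. All 3 families grew by tandem duplication, lie in dense gene arrays and are kept in closed chromatin in most cells, while a mature olfactory neuron expresses a single odorant receptor gene from a single allele. Macrophages are not a standard site of their expression, although mouse vascular macrophages have been reported to use Olfr2.

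Promoter sequences are shown first, for the places where a region touched or nearly touched the start of a receptor gene. The windows run from 250 bases before to 50 bases after a gene's start and come from RefSeq (GRCm38.p6, the build named mm10), which matched 1267 of 1465 receptor genes in 1272 windows. A region overlapped 2 of these windows, or 0.157%, against 23 of 21263 windows (0.108%) over all protein-coding genes. Both are printed with the bases inside the region in capitals, together with a window that 2 Vmn1r genes share and that had a region just beside each copy.
Vmn1r103, chr7:20510485-20510784, minus strand: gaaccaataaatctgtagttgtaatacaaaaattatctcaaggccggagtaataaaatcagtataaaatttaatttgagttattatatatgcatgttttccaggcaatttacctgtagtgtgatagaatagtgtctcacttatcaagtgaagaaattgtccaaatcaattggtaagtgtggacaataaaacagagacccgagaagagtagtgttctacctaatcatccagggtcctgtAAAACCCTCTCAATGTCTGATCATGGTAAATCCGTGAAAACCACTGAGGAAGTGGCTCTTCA
Vmn2r121, chrX:124135861-124136160, minus strand: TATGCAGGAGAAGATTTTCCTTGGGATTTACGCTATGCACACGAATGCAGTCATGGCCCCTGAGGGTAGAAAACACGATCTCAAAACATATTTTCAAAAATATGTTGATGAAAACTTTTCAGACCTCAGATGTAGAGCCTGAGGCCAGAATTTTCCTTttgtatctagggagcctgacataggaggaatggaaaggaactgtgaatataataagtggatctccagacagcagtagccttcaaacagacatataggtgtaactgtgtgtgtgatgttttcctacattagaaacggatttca
Vmn1r104, chr7:20533587-20533886, plus strand: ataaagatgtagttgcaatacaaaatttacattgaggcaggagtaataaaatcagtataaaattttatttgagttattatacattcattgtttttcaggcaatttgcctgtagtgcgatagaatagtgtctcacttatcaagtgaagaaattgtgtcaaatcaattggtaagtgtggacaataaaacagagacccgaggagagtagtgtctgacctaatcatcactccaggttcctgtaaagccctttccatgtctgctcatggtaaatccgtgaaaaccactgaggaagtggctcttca
The Vmn1r103 window held 62 bases of a region of 253 bp (chr7:20510294-20510546), which the IRF3 list of KO cells with LPS alone contained, at rank 1773 with a q-value of 0.903. The Vmn2r121 window held 158 bases of a region of 577 bp (chrX:124136003-124136579), found in the IRF3 list of WT cells with LPS alone, at rank 1360. Both peaks stood near the end of their lists, where peaks are ranked by the p-value the authors deposited. The third window is the same, at 300 of 300 positions, in Vmn1r104 and in Vmn1r152, which lies on the same chromosome. A region lay 878 bp from the Vmn1r104 window in both IRF3 lists of KO cells (rank 1096 with LPS and 1697 untreated) and 727 bp from the Vmn1r152 window in the IRF3 list of untreated WT cells alone (rank 737).

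Such copies were common beside these genes. The Vmn1r103 window is also identical to that of Vmn1r151, whose nearest region was 21167 bp away, and the Vmn1r48 window to that of Vmn1r47. Among receptor windows, 140 of 1272 (11.01%) were the same at 90% or more of their positions as the window of another gene, against 3.20% of other protein-coding windows. The share was 37.4% for Vmn1r, 36.4% for Vmn2r and 2.11% for Olfr. Reads from copies this alike can be assigned to either, and the sources used here do not say how such reads were handled, so which copy a peak beside a Vmn1r or Vmn2r gene belongs to is uncertain. The receptor windows were poor in G and C, with a median of 35.7% against 56.3% over all windows, and 31.0% of them held no CpG, the dinucleotide that Dnmt3a methylates, against 4.63%.

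Letters of factor motifs were sought on both strands of all windows. TAATTA, the core bound by homeodomain proteins, occurred in 16.6% of receptor windows against 4.53% of all windows. GAAA, any 2 bases and GAAA again, the pair of repeats read by IRF proteins, occurred in 5.90% against 3.35%. The NF-kB consensus occurred in 2.75% against 12.0%, and TCCC, any 2 bases and GGGA, the letters read by EBF proteins, in 0.393% against 0.959%. The 3 printed windows, and those of Vmn1r48 and Olfr769, the other receptors with a region within 1 kb of the window, held none of these letters. The shares were not adjusted for base composition, which differed between the sets (median G and C 35.7% in receptor windows against 56.3% in all). Differences between them therefore cannot be told apart from that of composition. These matches describe letters in windows only, and they were not tied to the peaks, whose own sequence was not used here.

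The surroundings of the 1465 receptor genes covered 94.9 Mb, or 3.49% of the assembly, and held 2.98 regions per Mb, against 2.03 per Mb in the rest. That ratio of 1.47 was not shared equally by the families. Surroundings of Vmn1r genes held 4.57 regions per Mb (86 regions in 18.8 Mb), those of Vmn2r genes 3.15 per Mb (70 in 22.2 Mb) and those of Olfr genes 2.49 per Mb (145 in 58.3 Mb). Other tandem families gave values on both sides. Surroundings of the beta-defensin genes (Defb), which encode antimicrobial peptides, held 4.54 regions per Mb and those of the zinc finger genes (Zfp) 2.89 per Mb. Keratin (Krt) and protocadherin (Pcdh) surroundings held 1.34 and 1.89 per Mb, and cytochrome P450 (Cyp) surroundings 2.14 per Mb. Pooled density near receptors was therefore higher than in the rest, and within the range of these other arrays. Vmn1r surroundings alone lay just above that range, whose top value, for Defb, rests on 18 regions. The 86 Vmn1r regions include 9 around Vmn1r238 and 9 around Vmn1r2 and Vmn1r3, described below.

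Pooled over the 3 families, regions were less dense inside receptor genes than from 1 to 50 kb away. Density was 2.27 per Mb inside receptor spans (13 regions) and 1.72 per Mb in the first 1 kb outside them (5 regions). It reached 3.55 per Mb from 1 to 10 kb (77 regions) and 3.22 per Mb from 10 to 50 kb (84 regions), then came to 2.59 per Mb from 100 to 250 kb. Beyond the limit it was 2.39 per Mb from 250 to 500 kb and 1.60 per Mb from 500 to 1000 kb, so the limit of 250 kb does not mark a step. The low density inside genes was not shared by all families, since no region overlapped an Olfr gene. Spans of Vmn1r genes held 5.26 regions per Mb (2 regions) and those of Vmn2r genes 3.42 (11 regions). Their surroundings held 4.57 and 3.15 per Mb. The median distance to the nearest receptor was 20247 bp. The members closest inside the limit lay 240804 bp from Olfr211, 239626 bp from Olfr1507 and 239449 bp from Olfr161, and the regions closest outside it 252601 bp from Olfr161, 256582 bp from Olfr1320 and 260333 bp from Olfr464.

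**Figure D1:**
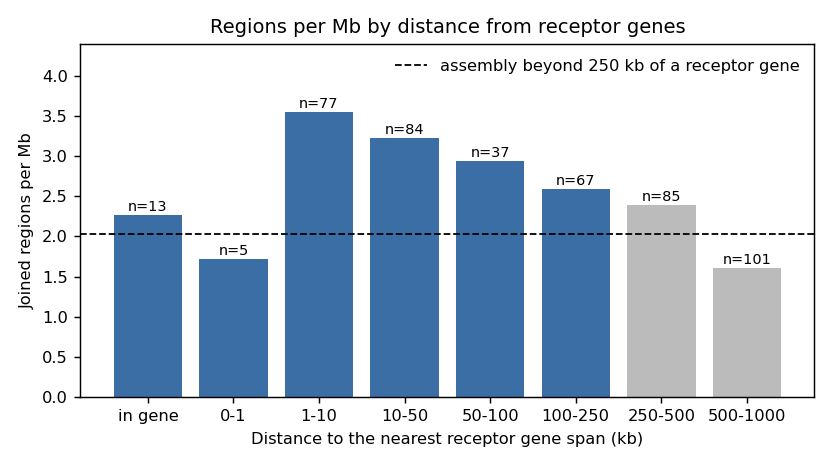
Joined regions per Mb in bands of distance from the nearest receptor gene, with bands inside the 250 kb limit in blue, those outside it in grey, the number of regions on each bar and the assembly beyond the limit as a dashed line. The band from 1 to 10 kb stands highest at 3.55 per Mb, and the first 1 kb outside the genes lowest of the bands within the limit at 1.72 per Mb.

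At the genes themselves the families differed. No region overlapped, or came within 1 kb of, any of the 1110 Olfr genes, which allows a share of up to 0.270% of them (a limit of 3 genes, not an exact interval). These genes are short, with a median annotated span of 950 bp, and their spans with 1 kb on either side cover 4.33 Mb, a length that would hold 8.77 regions at the density of the rest of the assembly. Within 10 kb a region was found for 48 Olfr genes (4.32%). Of the Vmn1r genes, which are as short (924 bp), 2 were overlapped, 4 had a region within 1 kb and 23 (9.96%) within 10 kb. Vmn2r genes carry several exons and span a median of 24392 bp, and 9 of the 124 were overlapped (3.42 regions per Mb of span, against 5.26 for Vmn1r), 12 had a region within 1 kb and 21 (16.9%) within 10 kb. Among all other protein-coding genes, whose median span was 19058 bp, the share with a region within 10 kb was 8.23%. Olfr genes stood below it and both Vmn families above it. These shares were not adjusted for gene length, and a longer gene offers more bases for a region to lie near.

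**Figure D2:**
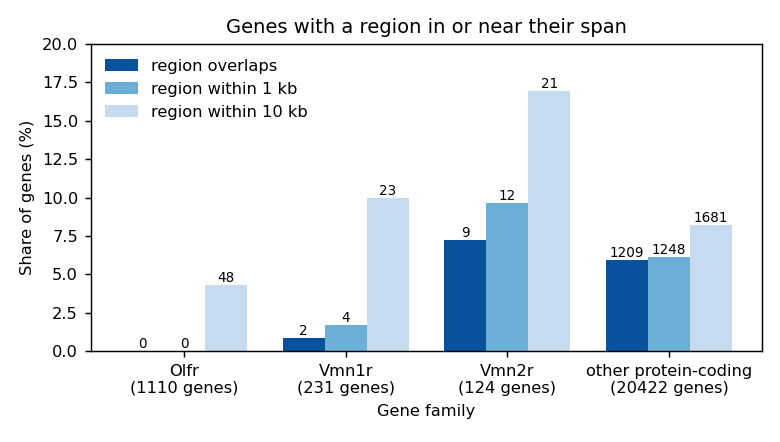
Share of the genes of each receptor family, and of all other protein-coding genes, that a region overlapped or came within 1 or 10 kb of, with the number of genes on each bar. The Olfr bars for overlap and for 1 kb are at 0, while 9 of 124 Vmn2r genes were overlapped.

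The nearest receptor was an Olfr gene for 140 regions (49.5%), a Vmn1r gene for 84 (29.7%) and a Vmn2r gene for 59 (20.8%). For 196 regions (69.3%) that receptor was also the nearest protein-coding gene of any kind. Few of the regions lay in a gene, 46 or 16.3% (12.2 to 21.1%), against 30.4% (29.2 to 31.7%) of the regions further away. Within 10 kb of an annotated long noncoding RNA lay 7.42% of them, against 14.1% of the others. Neither contrast was adjusted for how much of the ground genes or noncoding RNAs cover. Receptor genes had a median span of 951 bp, against 19058 bp for other protein-coding genes. Within 10 kb of a receptor pseudogene lay 14.1% of the regions near receptors, against 0.846% of the others. Receptor pseudogenes carry the same symbol prefixes as the genes that chose the regions, so this last contrast comes with the rule and is not a separate result. Their widths were those of the whole set, with a median of 879 bp (107 to 10349 bp) against 882 bp for all regions.

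The 1465 receptors formed 79 clusters when surroundings that touched were joined. In 66 of them lay at least 1 region, and the 13 clusters without any were small, with at most 3 receptors each and 19 in all. These 13 include the surroundings of Olfr100, of Vmn2r122 and of Vmn1r186 and Vmn1r187. These surroundings were cut at base 1 of their chromosomes and end at bases 331681, 261935 and 422761. No region of any list started before base 3000251 of a chromosome, so the absence of regions there carries no information. The most regions, 22, lay in the array from Vmn1r91 to Vmn1r183 on chromosome 7, which holds 86 Vmn1r genes at 4.94 regions per Mb. Of these, 18 were in a single list. The largest Olfr array, from Olfr987 to Olfr1274 on chromosome 2 with 222 genes, had 17 regions. Next came 13 between Vmn1r72 and Vmn1r89 on chromosome 7, 12 between Vmn2r90 and Vmn1r237 on chromosome 17 and 12 between Olfr543 and Olfr692 on chromosome 7. Chromosome 7 held 82 of the 283 regions (29.0%), and also 417 of the 1465 receptors and 26.6 of the 94.9 Mb of surroundings. Across the 79 clusters the number of regions followed the length of the cluster (Spearman rho 0.61) and its number of receptors (rho 0.57), given as a description of clusters that share the same lists.

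**Figure D3:**
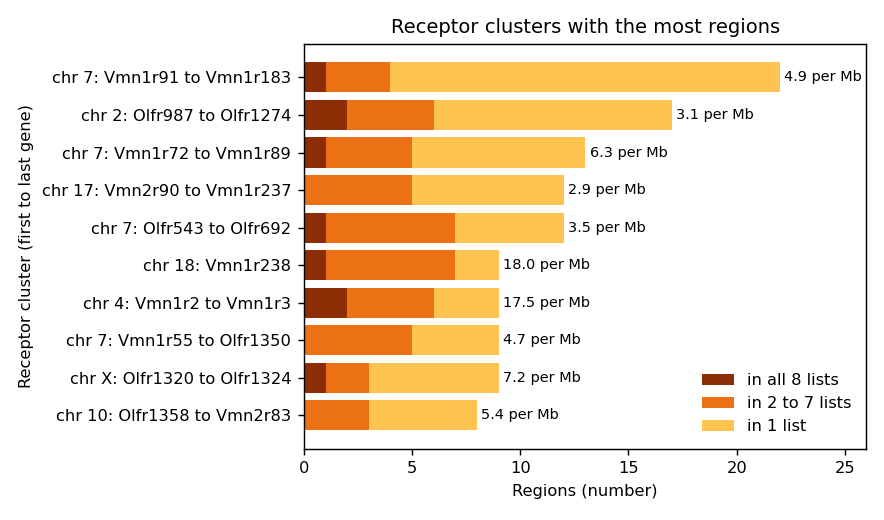
Number of joined regions in the 10 receptor clusters with the most, split by the number of lists that held each region, with the density beside each bar. The chromosome 7 array from Vmn1r91 to Vmn1r183 has the longest bar with 22 regions, 18 of them in 1 list, and the short clusters of Vmn1r238 and of Vmn1r2 and Vmn1r3 have the highest densities of the 10.

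Density was far higher in 2 short clusters that lie at the start of their chromosomes. The surroundings of Vmn1r238 on chromosome 18 and those of Vmn1r2 and Vmn1r3 on chromosome 4 each held 9 regions, at 18.0 and 17.5 per Mb. In all, 22 of the 283 regions (7.77%, 4.94 to 11.5%) lay in the first 4 Mb of a chromosome, next to the unsequenced centromeric end, on 3 chromosomes. Of the regions further from receptors 140 (2.63%, 2.22 to 3.10%) did, on 20 chromosomes. Without regions before 4 Mb, 4.80% of all regions lay near receptors (4.24 to 5.40%).

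All 8 lists contained 25 of the regions (8.83%, 5.80 to 12.8%), where the share over all regions was 6.42%. A single list held 133 (47.0%, 41.1 to 53.0%), where the share over all regions was 49.3%. Both shares were close to those of the whole set. The median width was 378 bp for members in 1 list and 2765 bp for those in all 8, against 369 and 2471.5 bp over all regions, and a joined region spans its peaks in all lists, so its width can grow with their number by construction. Of the 25, the nearest receptor was an Olfr gene for 10, a Vmn1r gene for 10 and a Vmn2r gene for 5, and none lay inside a receptor gene.

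The highest-ranked of all these regions lay 80933 bp from Vmn1r2 (chr4:3089534-3091149, 1616 bp). It was the first peak of 6 lists, the second of the NF-kB list of untreated KO cells and number 12 in the IRF3 list of WT cells with LPS. Its IRF3 q-values were 2.22e-07 in KO cells with LPS, 1.48e-06 in untreated KO cells, 0.00166 in WT cells with LPS and 3.81e-07 in untreated WT cells. Its NF-kB q-values were 6.05e-08 in KO cells with LPS, 1.77e-07 in untreated KO cells, 9.03e-08 in WT cells with LPS and 3.38e-08 in untreated WT cells. The peak at the top of these lists therefore lay at the same place for both factors, in both genotypes and with or without LPS. A further region in all 8 lists lay beside it, 86223 bp from Vmn1r2 (6139 bp wide).

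The second by median rank lay 898 bp from Vmn2r129 (chr4:156340398-156343878, 3481 bp). It held IRF3 ranks 13 in KO cells with LPS, 4 in untreated KO cells, 70 in WT cells with LPS and 12 in untreated WT cells, and NF-kB ranks 5, 12, 5 and 4 in those groups. Closest to a receptor of the 25 was a region 117 bp from Vmn1r48 (chr6:90033439-90035815, 2377 bp), with IRF3 ranks 154, 53, 45 and 78 and NF-kB ranks 71, 40, 57 and 76 in the same order of groups. Both stood within the first 154 peaks of every list, so neither was high in some groups and low in others. The region 1944 bp from Vmn1r238 on chromosome 18 (7086 bp) spread more, from 758 in the IRF3 list of untreated KO cells to 27 in the NF-kB list of KO cells with LPS. The other regions of this kind with the best ranks lay near Vmn1r157, near Vmn2r87 and, beside genes other than receptors, inside Gng12 (a G protein gamma subunit, 201279 bp from Vmn1r39), 12505 bp from Gm2128 and 21325 bp from Zfp763. The other 15 of the 25 had median ranks between 167.5, for a region 106827 bp from Olfr459, and 900.5, for one 15938 bp from Olfr209.

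**Figure D4:**
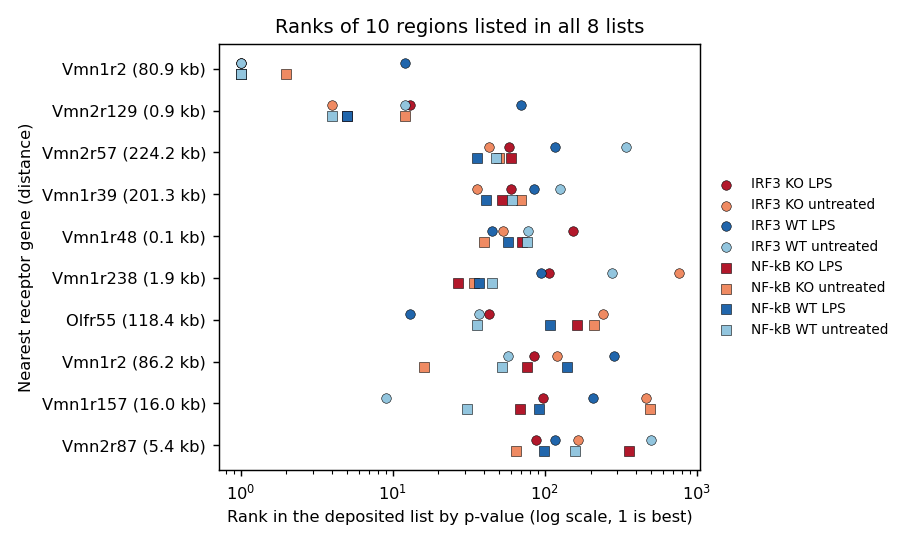
Rank by deposited p-value, on a log axis, of the 10 regions in all 8 lists with the best median rank, circles for IRF3 lists and squares for NF-kB lists, with points of equal rank drawn over each other. The region near Vmn1r2 stands at rank 1 in 6 lists, at 2 in the NF-kB list of untreated KO cells and at 12 in the IRF3 list of WT cells with LPS.

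By list, the regions near receptors were 90 in KO cells with LPS, 84 in untreated KO cells, 78 in WT cells with LPS and 64 in untreated WT cells for IRF3. NF-kB lists held 108, 143, 116 and 75 in the same order. As a share of each list's regions this was 5.23%, 5.30%, 5.71% and 5.61% in the IRF3 lists, and 4.89%, 4.85%, 4.83% and 5.45% in the NF-kB lists. The numbers thus followed the lengths of the lists, which ran from 1169 to 3065 peaks, and the shares differed by less than their counting intervals. Between 5 and 12 of the first 100 peaks of a list lay in these regions. Deposited q-values were mostly high, as in the whole lists, whose largest q-value lay between 0.893 and 0.912. Member peaks with a q-value under 0.05 numbered 12, 5, 11 and 14 in the IRF3 lists, which was 12.6%, 5.68%, 12.9% and 20.9% of the member peaks, against 7.98%, 6.68%, 9.97% and 15.7% of all peaks. NF-kB lists held 19, 24, 23 and 14, which was 15.6%, 16.2%, 18.9% and 18.2%, against 9.55%, 13.8%, 13.2% and 9.23% of all peaks. The share was thus higher for member peaks in every list but that of IRF3 in untreated KO cells, a difference that was not tested.

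Between genotypes, each comparison asks which regions near receptors were in the KO list, the WT list or both. For IRF3 with LPS, 50 of 128 (39.1%, 30.6 to 48.1%) were in KO cells alone and 38 (29.7%, 21.9 to 38.4%) in WT cells alone, where the shares over all regions were 40.6% and 25.2%. For IRF3 in untreated cells, 44 of 108 (40.7%, 31.4 to 50.6%) were in KO cells alone and 24 (22.2%) in WT cells alone, where the shares over all regions were 45.0% and 23.5%. Each of these shares over all regions lay inside the counting interval of the regions near receptors. For NF-kB with LPS, 37 of 153 (24.2%, 17.6 to 31.8%) were in KO cells alone and 45 (29.4%) in WT cells alone, where the shares over all regions were 27.0% and 32.9%. For NF-kB in untreated cells, 96 of 171 (56.1%, 48.4 to 63.7%) were in KO cells alone and 28 (16.4%, 11.2 to 22.8%) in WT cells alone, where the shares over all regions were 59.0% and 12.0%. The NF-kB list of untreated KO cells was also the longest. In that list and no other were 45 of the 283 members and 843 of the 5605 regions in all. With all lists shortened to 1169 peaks, the share in KO cells alone was 22.0% of members (13.6 to 32.5%) and 32.4% of all regions. Lists of equal length must hold about as many regions alone on either side, so the fall over all regions comes with the setting. Among peaks with a q-value under 0.05 the share in KO cells alone was 13 of 27 members (48.1%, 28.7 to 68.1%) and 70.0% of all regions.

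By the ranks, the regions listed for KO cells alone included the one 116825 bp from Olfr62 and 2226 bp from Tmem125 (1547 bp). It had IRF3 ranks 113 with LPS and 147 untreated in KO cells and was in neither IRF3 list of WT cells. NF-kB lists of both genotypes held it, at ranks 42 and 8 in KO cells with LPS and untreated and at 80 and 1127 in WT cells with LPS and untreated. The widest member, 102818 bp from Vmn1r2 (chr4:3058916-3069264, 10349 bp), was at rank 264 for IRF3 and 197 for NF-kB in KO cells with LPS and at 91 for NF-kB in untreated KO cells, and no WT list held it. All 4 KO lists and no WT list held a single member, 14609 bp from Vmn1r82, at IRF3 ranks 498 and 1041 and NF-kB ranks 1812 and 1187 with LPS and untreated, where 0.321% of all regions had that pattern. In the other direction, a region of 318 bp lying 62635 bp from Vmn2r25 was in 3 WT lists, at rank 597 for IRF3 with LPS, 159 for IRF3 untreated and 319 for NF-kB untreated, and in no KO list. A region of 2362 bp lying 16865 bp from Olfr108 was in every list but that of NF-kB in untreated KO cells. In KO lists and no WT list were 106 members (37.5%, where the share over all regions was 37.2%). Of these, 21 were in at least 2 lists (7.42% of members, against 7.21% of all regions). In WT lists and no KO list were 55 members (19.4%, where the share over all regions was 21.7%). Of these, 7 were in at least 2 lists (2.47% of members, against 2.37% of all regions).

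LPS and untreated lists were compared in the same way. For IRF3 in KO cells, 39 of 123 (31.7%, 23.6 to 40.7%) were in the LPS list alone and 33 (26.8%) in the untreated list alone, where the shares over all regions were 32.3% and 26.5%. For IRF3 in WT cells, 33 of 97 (34.0%, 24.7 to 44.3%) were in the LPS list alone and 19 (19.6%) in the untreated list alone, where the shares over all regions were 39.2% and 27.2%. The 45 members in both of these WT lists made up 46.4% (36.2 to 56.8%), against 33.6% of all regions. For NF-kB in KO cells, 52 of 195 (26.7%, 20.6 to 33.5%) were in the LPS list alone and 87 (44.6%) in the untreated list alone, where the shares over all regions were 22.3% and 41.8%. Both of these KO lists held 56 members (28.7%, 22.5 to 35.6%), against 36.0% of all regions. For NF-kB in WT cells, 68 of 143 (47.6%, 39.1 to 56.1%) were in the LPS list alone and 27 (18.9%) in the untreated list alone, where the shares over all regions were 51.8% and 15.8%. The longer list of each NF-kB pair (2376 peaks with LPS and 3065 untreated in KO cells, 2494 with LPS and 1462 untreated in WT cells) also had more members alone. With lists of equal length the share in the LPS list alone was 29.2% of members (28.4% of all regions) in KO cells. In WT cells it was 27.3% of members (31.7% of all regions). Over all regions, lists cut to the same number of peaks must hold about as many regions alone on either side. The smaller contrast between the genotypes therefore comes with the setting and is not a result about LPS or Dnmt3a.

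**Figure D5:**
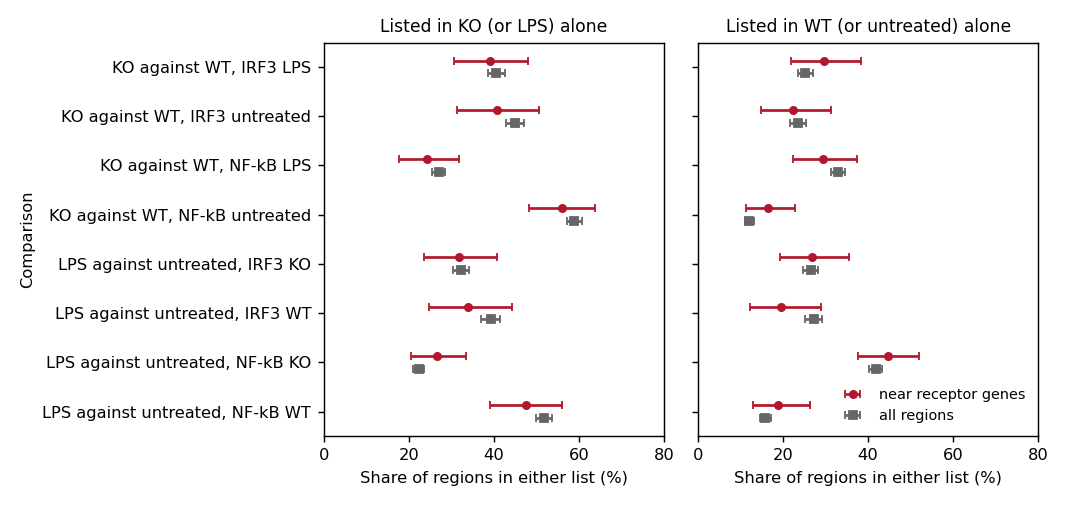
Share of regions near receptors (circles) and of all regions (squares) found in KO or LPS lists alone, on the left, and in WT or untreated lists alone, on the right, as a percentage of the regions in either list, with exact 95% intervals. In each of the 8 comparisons, on both sides, the share of all regions lies inside the interval of the regions near receptors.

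Between the factors, IRF3 alone held 33 of 141 members (23.4%) in KO cells with LPS and NF-kB alone 51 (36.2%), where the shares over all regions were 23.1% and 40.1%. In untreated KO cells the numbers were 24 of 167 (14.4%) for IRF3 and 83 (49.7%) for NF-kB, where the shares over all regions were 11.1% and 52.2%. In WT cells with LPS they were 23 of 139 (16.5%) for IRF3 and 61 (43.9%, 35.5 to 52.5%) for NF-kB, where the shares over all regions were 15.8% and 52.2%. In untreated WT cells they were 26 of 101 (25.7%) for IRF3 and 37 (36.6%) for NF-kB, where the shares over all regions were 27.0% and 39.5%. Over all lists, 46 members (16.3%, where the share over all regions was 15.7%) were in IRF3 lists and no NF-kB list and 123 (43.5%, where the share over all regions was 45.0%) in NF-kB lists and no IRF3 list. A region of 234 bp lying 4507 bp from Olfr1055 (chr2:86341983-86342216) was in all 4 IRF3 lists and no NF-kB list. Its ranks were 160 in KO cells with LPS, 307 in untreated KO cells, 182 in WT cells with LPS and 549 in untreated WT cells. Only 1 other region of the 5605 had that pattern (0.0357% of all regions). The reverse pattern, all 4 NF-kB lists and no IRF3 list, was found for no member and for 34 other regions (0.607% of all regions).

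LPS lists alone held 77 members (27.2%, where the share over all regions was 29.6%). Of these, 19 were in at least 2 lists (6.71% of members, against 4.69% of all regions). Untreated lists alone held 86 members (30.4%, where the share over all regions was 27.7%). Of these, 11 were in at least 2 lists (3.89% of members, against 3.28% of all regions). A pattern picked out after the values were seen was presence in both NF-kB LPS lists and neither untreated NF-kB list. It was found for 19 members (6.71%, 4.09 to 10.29%), where the share over all regions was 3.32%. With lists of equal length it was 6 of 161 (3.73%), against 2.34% of all regions, and among peaks under 500 bp 5 of 143 (3.497%), against 2.62% of all regions. The IRF3 counterpart held a single member (where the share over all regions was 1.59%), 6551 bp from Olfr834 (chr9:18980451-18981438, 988 bp). That region was in all 4 LPS lists and no untreated list, which 0.0535% of all regions were, at ranks 1084 (IRF3) and 1443 (NF-kB) in KO cells and 1198 (IRF3) and 2027 (NF-kB) in WT cells. All 4 ranks lay in the lower part of their lists, and the q-values ran from 0.580 to 0.902.

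Some of the regions counted as near receptors lay at genes of the innate immune system that have receptor genes as neighbours. Those described here were narrow NF-kB peaks, a group also picked out after the values were seen. NF-kB LPS lists held 31 members under 500 bp (11.0%, where the share over all regions was 14.1%), 21 of them in KO cells, 14 in WT cells and 4 in both. A q-value under 0.05 was found for 2 of the 21 in KO cells and 1 of the 14 in WT cells. The nearest protein-coding gene was a receptor for 20 of them and another gene for 11, of which 10 lay within 10 kb. A region 14 bp from Nlrp3, the sensor of the NLRP3 inflammasome, was 29227 bp from Olfr222 (chr11:59541288-59541554, 267 bp). It was at rank 653 (q-value 0.247) in KO cells with LPS and 1085 (0.352) in WT cells with LPS, and in no other list. A region 6829 bp from Fpr2, a formyl peptide receptor that detects bacterial peptides, was 148413 bp from Vmn2r124 (chr17:17900782-17901070, 289 bp). It was at rank 101 (q-value 0.00932) in KO cells with LPS and 831 (0.244) in WT cells with LPS, and in no other list.

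A region 5037 bp from Mefv, which encodes the inflammasome protein pyrin, was 115378 bp from Olfr15. It had ranks 331 (q-value 0.0921) in KO cells with LPS and 2435 (0.904) in WT cells with LPS. At Adgre1, which encodes the macrophage surface protein F4/80, a peak of 146 bp inside the gene was at rank 222 (q-value 0.0490) in KO cells with LPS alone. The same list alone held peaks 904 and 4542 bp from Fpr1, at ranks 377 (q-value 0.111) and 1265 (0.594). All of these were absent from both untreated NF-kB lists and from all IRF3 lists. Absence from the untreated NF-kB lists was usual for narrow regions of the LPS NF-kB lists, for 28 of the 31 members and 733 of 793 regions in all (13.1% of all regions). Narrow peaks also occurred in receptor genes. A peak of 146 bp inside Vmn2r83 (chr10:79476436-79476581) was at NF-kB rank 1240 (q-value 0.584) in KO cells with LPS. It was at 203 (0.0197) in WT cells with LPS and 687 (0.473) in untreated WT cells. Within Vmn2r27, a region of 556 bp was at rank 2251 (q-value 0.912) in KO cells with LPS and 1426 (0.518) in WT cells with LPS for NF-kB alone.

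Genes of the pathway that receptors feed into were read from lists of symbols, against a background of 8.10% of all protein-coding genes with a region within 10 kb. Of 13 genes of olfactory signal transduction 4 had one. The region 5920 bp from Adcy3, the adenylyl cyclase of olfactory cilia, which other cells also express, was in all 8 lists, at IRF3 ranks 53, 28, 57 and 36 and NF-kB ranks 33, 55, 45 and 22 in KO cells with LPS, untreated KO cells, WT cells with LPS and untreated WT cells. The regions at Pde1c (a phosphodiesterase) and Cnga2 (the olfactory cyclic nucleotide-gated channel) were in 1 list each and that at Ano2 (a calcium-activated chloride channel) in 3. None of 4 vomeronasal transduction genes had a region, and 1 of 7 receptor transport genes did, B2m, the light chain of class I molecules. Of 18 genes of receptor choice, Smchd1, which silences gene clusters, and Ebf3, an EBF transcription factor, had one.

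Other chemosensory families gave counts of 0 of 15 trace amine receptors (Taar), 0 of 3 Tas1r and 1 of 35 Tas2r taste receptors (Tas2r122), 2 of 7 formyl peptide receptors and 4 of 21 Ms4a genes (Ms4a10, Ms4a8a, Ms4a20 and Ms4a4a), with 0 of 1 for Gucy2d. None of the 4 receptors known outside the nose, Olfr2, Olfr78, Olfr544 and Olfr16, had a region within 10 kb. Among markers, 2 of 6 for olfactory neurons (Adcy3 and Cnga2) and 0 of 4 for vomeronasal neurons had one. With lists this short the exact intervals are wide, from 9.09 to 61.4% for olfactory transduction and from 0 to 21.8% for the trace amine receptors.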

How the data were processed

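IRF3 and NF-kB ChIP-seq peaks were read from 8 deposited lists, and each list merges the replicates of a single group, per the labels. The submitters' processing notes give mm10 as the build and name, with no role, MACS2 2.1.1, HOMER 4.9, Picard 2.8.0 and deepTools 3.5.0. Not given in the sources used here are the aligner, the merging of replicates, the threshold and the read depth. Each deposited peak carries a score and a signal value, used as a score with no stated normalization, and a p-value and q-value deposited by the authors. If the lists come from ChIP-R, as the word chipr in the labels may mean, these describe agreement of ranks between replicates, not enrichment over input. Their ranks within a list, taken from the p-value and, for equal values, from signal, width and position, describe peaks in that list only.

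The peaks of chromosomes 1 to 19, X and Y were joined into regions (overlap of at least 1 bp). Gene spans came from a RefSeq table of GRCm38.p6 (21887 protein-coding genes), and distances run to the nearer end of a span. Lengths in Mb run to the last annotated gene or peak. Shares carry exact Clopper-Pearson 95% intervals; no set test or test between groups was made, since merged lists give no replicate spread. Regions named in the text were the best-ranked by a rule (10 in all 8 lists, 5 per list, 3 present in either list alone per comparison, those within 1 kb of a receptor and those next to the distance limit). Others are said to be picked after their values were seen, or are the only members of their pattern. The members, gene lists and tests were chosen with earlier results of these data known. A list of histone genes matched no symbol. Methylation, accessibility and input samples were not analysed here. Scripts used Python 3.11.15, pandas 2.3.3, SciPy 1.17.1 and matplotlib 3.10.9, and the joining and counting were tested on simulated data.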

Additional observations from a re-analysis of the deposited data

How the results depend on the processing

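No paired analysis was possible because each list merges the replicates of its group, and for the same reason no replicate could be left out. Over 13 alternative settings, 2 of them chosen after seeing the data (peaks under 500 bp, and regions before 4 Mb left out), 112 of 142 values stayed inside the counting interval of the main value. The share of regions near receptors, 5.05%, follows its rule: 3.85% within 100 kb, 6.57% within 500 kb, 6.02% for peaks with a q-value under 0.05 (37 of 615 regions), 2.59% for Olfr genes alone, 2.64% for Vmn1r and Vmn2r genes alone and 3.77% without chromosome 7. Limited to a q-value under 0.05, these shares rest on few members. KO alone was 1 of 15 for IRF3 untreated (6.67%, 0.169 to 31.9%, against 19.4% of all regions). It was 13 of 27 for NF-kB untreated (48.1%, 28.7 to 68.1%, against 70.0%). LPS alone was 8 of 13 for IRF3 in KO cells (61.5%, 31.6 to 86.1%, against 38.3%). For NF-kB in KO cells it was 6 of 30 (20%, 7.71 to 38.6%, against 11.6%). With lists of equal length, KO alone was 30.1% for IRF3 untreated (32.7% of all regions) and 29.2% for IRF3 with LPS (31.0%). It was 22.0% for NF-kB untreated (32.4%). LPS alone was then 22.6% for IRF3 (32.1% of all regions) and 27.3% for NF-kB (31.7%) in WT cells. Olfr genes alone gave 52% in KO cells alone for IRF3 untreated (45.0% of all regions). They gave 48.9% in LPS alone for IRF3 in WT cells (39.2% of all regions). Without regions in all 8 lists, KO alone was 53.0% for IRF3 untreated (54.5% of all regions) and 48.5% for IRF3 with LPS (48.1%). It was 65.8% for NF-kB untreated (66.1%). LPS alone in WT cells was then 45.8% for IRF3 (48.5% of all regions) and 57.6% for NF-kB (59.3%). Among peaks under 500 bp, KO alone was 62.5% for IRF3 with LPS (49.2% of all regions) and 52.5% for NF-kB with LPS (49.6%). LPS alone was 60% for IRF3 in KO cells (48.4% of all regions). For NF-kB it was 49.3% in KO cells (45.5%) and 57.4% in WT cells (67.4%). In all 8 lists were 0 of these 143 members (0.0354% of all regions), which allows a share of up to 2.55% (exact interval). Shortening or filtering lists leaves fewer peaks by construction. Over all regions, equal length also brings the alone shares on either side of a pair close together. Beyond that the cause of each shift was not tested. Unknown read depth, copies of receptor genes that reads may not tell apart and deposited q-values up to 0.912 limit what presence in a list shows.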
